A study of Homo sapiens with 14 samples.

Results

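The step described here lies within the arrays labelled passage 50 of a long culture of WI-38, a strain of diploid human lung fibroblasts that had been immortalized with hTERT, the protein subunit of telomerase that copies the telomere repeat. It compares a later pair of arrays, A50 replicate 2 and A58 replicate 1, with an earlier pair, A39 replicate 2 and A50 replicate 1, and so uses 4 of the 14 arrays of the study. A later array and its partner carry different passage labels, and so do the 2 earlier ones. The pairs were chosen by how alike the arrays were, measured as the correlation of their log2 values over all rows, so every value of these 4 arrays took part in choosing them, and differences between the pairs are given as a description with no test.

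The study measured RNA on Affymetrix Gene 1.0 ST arrays, which probe transcripts along their whole length, in 7 labelled groups of 2 arrays. The groups were hTERT-immortalized cells marked A at passages 39, 50, 58, 67 and 95, hTERT-immortalized cells marked B at passage 96, and primary cells at passage 19, written below as A39, A50, A58, A67, A95, B96 and primary, and each array is named by its printed label. All 4 arrays of the step carry the hTERT label, at passages 50 and 58 in the later pair and 39 and 50 in the earlier pair. The replicates were biological duplicates, per the labels, and the cells were reseeded weekly at a fixed number. The meaning of the letters A and B was not stated in the labels. By its title, the study was about DNA methylation that comes to differ at random, in healthy and in tumour tissue.

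Fibroblasts make and remodel the collagen-rich matrix of connective tissue, hold on to it through integrins, and signal to neighbouring epithelium through secreted Wnt, BMP and growth factor ligands. Primary fibroblasts stop dividing after a limited number of passages, and added telomerase lifts that limit. A clone is the progeny of 1 cell, and in a culture that is thinned and regrown at each passage the progeny of some cells can come to outnumber the rest. The arrays measured RNA of whole cultures and hold no measure of clonality, so the step is described by its arrays and its genes, and whether it was clonal was not tested. In such bulk RNA, fewer cells expressing a gene and less of its RNA per cell cannot be told apart.

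The pairing rests on correlations across all 28869 rows of the table. The correlation was 0.991 within the later pair and 0.992 within the earlier pair, while all 4 correlations between an array of the later and an array of the earlier pair lay at 0.976 or 0.977. Within the later pair 198 rows lay at least 1 log2 unit apart and within the earlier pair 180, against 747 to 836 rows for arrays of different pairs. The 2 arrays labelled A50 therefore stood on opposite sides, with 766 rows at least 1 log2 apart. The labels may be displaced by one position, so that the partner arrays belong to 1 passage, and the passage at which the step took place cannot be read from them.

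TERT was examined because its level separates hTERT from primary cells. On the log2 scale TERT measured 10.67 and 10.77 in the later pair and 12.18 and 11.98 in the earlier pair, a difference of -1.36. All 4 values were far above the 7.07 of primary replicate 1. Primary replicate 2 had 11.70, close to the 11.62 of A39 replicate 1 and inside the range of the hTERT arrays, so TERT goes against the label of that array. Whether the signal came from the introduced gene or the cell's own was not tested.

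Between the pairs, 231 of 18377 genes were at least 1 log2 unit (2-fold) higher in the later pair and 217 were at least 1 log2 lower, with no overlap between the arrays of the 2 sides. These were 1.26% and 1.18% of all genes, and since the pairs were formed from the same values the shares describe the size of the step only. At 2 log2 or more, 63 genes were higher and 77 lower, or 0.343% and 0.419%. Without a size limit, 55.7% of genes had sides that did not overlap. The median difference over all genes was -0.035, and the 5th and 95th percentiles were -0.46 and 0.47. The median gap between partner arrays was 0.11 in the later pair and 0.10 in the earlier pair. By rows of the table, named or not, 316 were higher (1.09%) and 274 lower (0.949%), and 133 of these 590 rows (2.04%) had no single gene symbol. The genes at the border were RASSF8 at 1.00 and SNCAIP at -1.01 just inside the limit, and TRPC1 at 0.995 and NR5A2 at -0.995 just outside it.

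**Figure D1:**
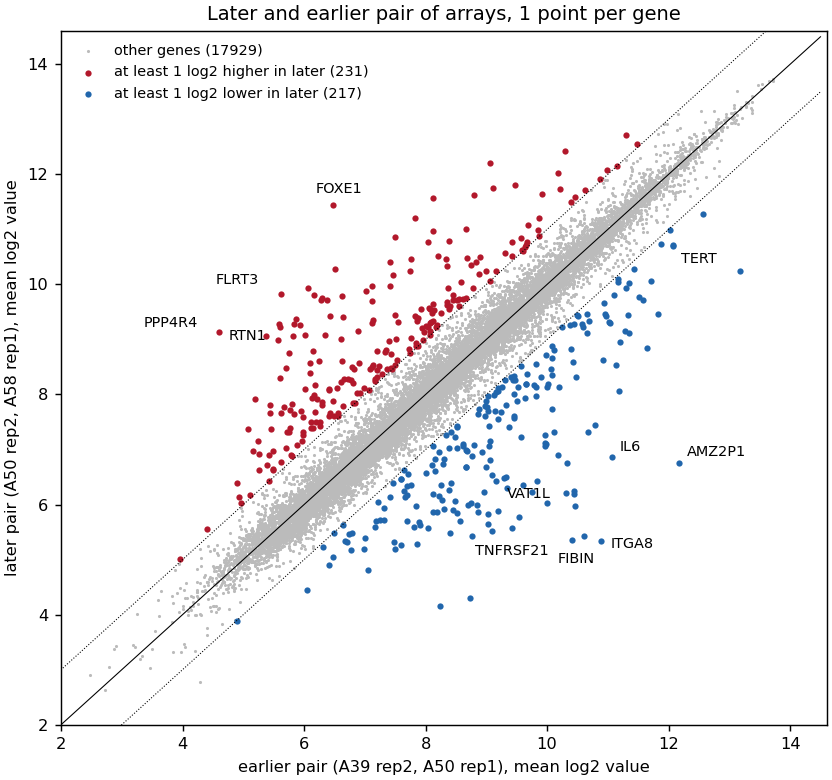
Mean log2 value of each of 18377 genes in the later pair (vertical axis) against the earlier pair (horizontal axis). Red points are the 231 genes at least 1 log2 higher in the later pair and blue points the 217 at least 1 log2 lower, and the dotted lines mark 1 log2. ITGA8, AMZ2P1, TNFRSF21 and FIBIN lie farthest below the diagonal, and FOXE1 and PPP4R4 farthest above it.

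The step was set beside 4 others between successive pairs of partner arrays by the number of rows past 2 log2. It had 160 such rows, 71 higher (0.246%) and 89 lower (0.308%). The step before it, into A39 replicate 2 and A50 replicate 1 out of primary replicate 2 and A39 replicate 1, had 27. The step after it, into A58 replicate 2 and A67 replicate 1, had 41, and the next, into A67 replicate 2 and A95 replicate 1, had 28. The last, into A95 replicate 2 and B96 replicate 1, which mixes arrays marked A and B and was added after the data were seen, had 351, more than the step described here. At 1 log2 the step was less distinct, with 316 rows higher and 274 lower, against 305 and 362 in the step after it, 187 and 390 in the step before it and 1086 and 1025 in the last. Successive steps share arrays, so these counts are side by side values only.

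The largest fall was that of ITGA8, the alpha subunit of the integrin that binds nephronectin in developing organs. It averaged 5.34 ± 0.21 in the later pair and 10.90 ± 0.04 in the earlier pair (SD, n = 2 each), a difference of -5.56 log2 or 47.2-fold. The later arrays read 5.19 and 5.48 and the earlier arrays 10.92 and 10.87. AMZ2P1, a transcribed pseudogene, was second, with 6.79 and 6.71 in the later pair, against 12.13 and 12.22 in the earlier pair, a difference of -5.42. TNFRSF21, a death domain receptor of the TNF receptor family, read 5.38 and 5.46 in the later pair, against 10.63 and 10.58 in the earlier pair, a difference of -5.18. Among the genes that were higher, FOXE1, a forkhead transcription factor known for its part in thyroid development, led with 11.44 and 11.43 in the later pair, against 6.39 and 6.56 in the earlier pair, a difference of 4.96 or 31.1-fold. The table has no detection calls, so values near 5 may lie where a probe set no longer responds, and folds against them may be too small.

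Methylation, the subject named in the study's title, lies mainly on CpG dinucleotides in human DNA. For 6 of the leading genes the 250 bases before 1 annotated start are therefore shown, with every CG in capitals. The promoter table holds 1 start per gene, and other starts of these genes were not examined. They are RefSeq promoters of GRCh38.p14, read 5′ to 3′ on the gene's own strand, and were chosen among the leading falls (ITGA8, TNFRSF21) and rises (FOXE1, PPP4R4, FLRT3, RTN1). ITGA8 lies on the minus strand, with the window at chr10:15719923-15720172. TNFRSF21 lies on the minus strand, at chr6:47309906-47310155. FOXE1 lies on the plus strand, at chr9:97852976-97853225, and PPP4R4 on the plus strand, at chr14:94174072-94174321. FLRT3 lies on the minus strand, at chr20:14337613-14337862, and RTN1 on the minus strand, at chr14:59610140-59610389.
ITGA8: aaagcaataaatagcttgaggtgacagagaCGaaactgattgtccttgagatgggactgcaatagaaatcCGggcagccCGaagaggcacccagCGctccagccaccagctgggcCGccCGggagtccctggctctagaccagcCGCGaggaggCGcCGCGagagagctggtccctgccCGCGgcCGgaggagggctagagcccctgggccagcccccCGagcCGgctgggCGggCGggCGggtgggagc
TNFRSF21: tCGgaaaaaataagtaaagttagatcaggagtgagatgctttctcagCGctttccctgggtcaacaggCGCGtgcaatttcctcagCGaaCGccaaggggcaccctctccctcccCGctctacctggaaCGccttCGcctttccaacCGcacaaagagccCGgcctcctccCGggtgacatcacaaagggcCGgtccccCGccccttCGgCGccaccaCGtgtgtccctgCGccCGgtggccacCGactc
FOXE1: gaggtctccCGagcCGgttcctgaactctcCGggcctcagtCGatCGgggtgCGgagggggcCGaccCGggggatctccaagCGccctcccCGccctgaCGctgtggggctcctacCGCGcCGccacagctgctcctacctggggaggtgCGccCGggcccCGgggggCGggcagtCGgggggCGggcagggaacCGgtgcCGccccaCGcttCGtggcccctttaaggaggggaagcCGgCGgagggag
PPP4R4: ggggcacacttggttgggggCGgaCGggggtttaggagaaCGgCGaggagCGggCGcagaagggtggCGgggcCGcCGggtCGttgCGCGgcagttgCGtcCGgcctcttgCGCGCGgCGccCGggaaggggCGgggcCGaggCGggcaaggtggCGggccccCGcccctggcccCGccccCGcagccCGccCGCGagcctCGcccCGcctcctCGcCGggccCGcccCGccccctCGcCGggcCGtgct
FLRT3: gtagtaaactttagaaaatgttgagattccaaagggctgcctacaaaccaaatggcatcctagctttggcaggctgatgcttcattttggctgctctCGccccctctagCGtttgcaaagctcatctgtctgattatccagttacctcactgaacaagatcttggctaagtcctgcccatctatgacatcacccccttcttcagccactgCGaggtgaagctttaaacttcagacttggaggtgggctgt
RTN1: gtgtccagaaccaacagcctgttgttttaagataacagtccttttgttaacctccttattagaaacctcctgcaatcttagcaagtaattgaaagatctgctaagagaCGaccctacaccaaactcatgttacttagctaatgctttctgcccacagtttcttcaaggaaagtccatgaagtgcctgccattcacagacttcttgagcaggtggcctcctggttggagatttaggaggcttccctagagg
The windows held 19 CG in ITGA8 and 20 in TNFRSF21, and no window is shown for AMZ2P1. Those of the rises spanned a wide range, with 38 in PPP4R4, 26 in FOXE1, 3 in FLRT3 and 1 in RTN1. Over all 27305 promoters of the table the median was 11 and 93.6% held at least 1. The word CG reads the same on both strands and was the only motif searched. A comparison of all rises with all falls was void, because only 79.7% of the 231 rises and 78.8% of the 217 falls matched a promoter of the table, under the 80% required. The share over all genes was 77.3%, so the low match was not particular to the step genes. Methylation was not measured on these arrays.

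The next falls were of mixed function. FIBIN, a secreted protein named for fin bud development in zebrafish, read 5.12 and 5.59 in the later pair, against 10.38 and 10.44 in the earlier pair, a difference of -5.06. VAT1L had a difference of -4.49, ADGRL4, an adhesion G protein-coupled receptor, -4.42, ANO4, a member of the anoctamin family, -4.18, DENND2A, an activator of Rab GTPases, -4.11, CLEC2B, a C-type lectin, -4.09, and SIPA1L2 -3.97. IL6, the inflammatory cytokine, read 6.97 and 6.77 in the later pair, against 11.06 and 11.08 in the earlier pair, a difference of -4.20 or 18.4-fold. Its annotated antisense neighbour IL6-AS1 differed by -1.38 in the same direction.

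Among the 12 largest rises, PPP4R4, a regulatory subunit of protein phosphatase 4, read 9.22 and 9.04 in the later pair, against 4.53 and 4.67 in the earlier pair, a difference of 4.53. FLRT3, a membrane protein that acts as a ligand of Unc5 receptors and modulates FGF signalling, read 9.90 and 9.77 in the later pair, against 5.59 and 5.66 in the earlier pair. RTN1, a reticulon of the endoplasmic reticulum that is best known from neurons, read 9.33 and 9.22 in the later pair, against 5.55 and 5.63 in the earlier pair, a difference of 3.68. The sides of these 3 genes lay more than 3 log2 apart. The others were FAR2, a fatty acyl-CoA reductase, at 3.87, NALCN, a sodium leak channel, at 3.78, RSPO2, a secreted enhancer of Wnt signalling, at 3.68, SLC38A5, a glutamine transporter, at 3.63 and RAB17, a small GTPase, at 3.62. HHIP, which binds and restrains hedgehog ligands, differed by 3.52, SEMA3D, a secreted semaphorin, by 3.46, and AGTR1, the angiotensin II type 1 receptor, by 3.45.

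**Figure D2:**
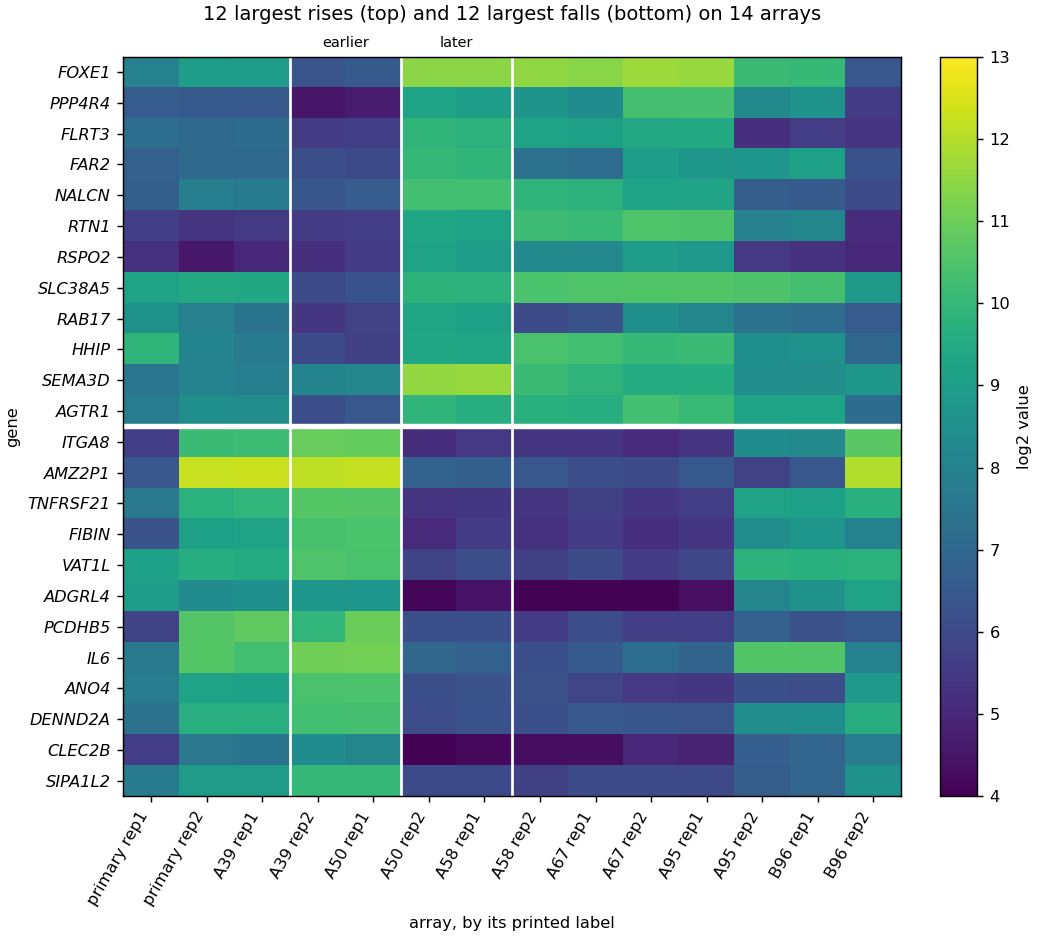
Log2 value (colour) of the 12 largest rises (upper block) and 12 largest falls (lower block) on each of the 14 arrays, in the order of their printed labels; the white lines frame the earlier and the later pair. Most of the falls stay dark as far as A95 replicate 1 and are brighter again in A95 replicate 2 and B96 replicate 1, and several rises, among them SLC38A5 and HHIP, are already bright in the primary arrays.

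Over all genes 1.26% were higher and 1.18% lower, and the counts of this and the following lists stand beside these shares as a description. Among integrins, 0 of 19 measured genes were higher and 2 lower, and the list's median was -0.18, against -0.035 over all genes. Beside ITGA8, this was ITGA11, the alpha subunit of a collagen-binding integrin of fibroblasts, which read 5.72 and 5.67 in the later pair, against 8.58 and 8.54 in the earlier pair. Of cadherins and other adhesion receptors, 4 of 30 were higher and 3 lower, with a median of -0.03. PCDH10, a protocadherin, was higher by 2.86 and NCAM2, a neural adhesion molecule, by 2.26. CADM1, an adhesion molecule of the immunoglobulin family, differed by -2.90 and VCAM1, which binds integrins of leukocytes, by -2.16.

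The clustered protocadherins, neighbouring genes of chromosome 5 from which single cells can use different members, had 5 of 15 measured members higher and 1 lower. Past 1 log2 either way were 40.0% of them, against 2.44% of all genes. Their median was 0.68, and 13 of the 15 differences were positive, against 42.4% of all genes. PCDHB5 read 6.20 on both later arrays, against 9.91 and 10.99 in the earlier pair, a difference of -4.25. The next gene in the cluster, PCDHB6, read 7.82 and 7.50 in the later pair, against 5.59 and 5.30 in the earlier pair, a difference of 2.22. PCDHB2 was higher by 1.58, PCDHB8 by 1.52, PCDHB13 by 1.34 and PCDHB14 by 1.08. Of 37 listed members, 15 had a row of their own, and since members of this family are near copies of each other their probes may share signal.

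In the extracellular matrix, 5 of 41 proteoglycans and other matrix proteins were higher and 1 lower (median 0.04), and 3 of 27 collagens were higher and 2 lower (median -0.20). ELN, the elastin of elastic fibres, read 11.64 and 11.60 in the later pair, against 8.79 on both earlier arrays, a difference of 2.83. Before the step ELN read 10.97, 10.66 and 10.51 in primary replicate 1, primary replicate 2 and A39 replicate 1. It read 9.05, 9.26, 10.71 and 10.77 in A58 replicate 2, A67 replicate 1, A67 replicate 2 and A95 replicate 1. POSTN, the matrix protein periostin, read 10.49 and 10.43 in the later pair, against 7.67 and 7.86 in the earlier pair. LTBP2, FBN2 and FBLN1, which associate with elastic fibres and microfibrils, were higher by 1.36, 1.08 and 1.05. THBS2, a thrombospondin, went the other way, with 6.79 and 7.01 in the later pair, against 10.21 and 10.16 in the earlier pair. COL11A1, a chain of fibrillar collagen XI, was higher by 3.44, COL15A1 by 1.56 and COL14A1 by 1.14. COL11A1 read 6.33 and 6.22 in the earlier pair, but 8.31, 8.80 and 8.69 in primary replicate 1, primary replicate 2 and A39 replicate 1. COL4A5 and COL4A6, head-to-head neighbours on the X chromosome that encode basement membrane chains, differed by -2.73 and -1.27.

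Secreted signals and their receptors differed in both directions. Among Wnt ligands and antagonists, 2 of 32 were higher and 2 lower (median -0.12). WNT2, a ligand made by lung mesenchyme, read 9.07 and 9.04 in the later pair, against 5.81 and 5.84 in the earlier pair. LEF1, a transcription factor of Wnt signalling, differed by -2.22, and DKK2, a secreted Wnt modulator, by -1.60. Of the TGF-beta and BMP genes, 4 of 30 were higher and 2 lower (median 0.22). BMPER, which binds BMPs outside the cell, was higher by 1.57, INHBA, an activin subunit, by 1.31, TGFBR1, the type I receptor, by 1.07, and FST, an activin antagonist, by 1.00. The ligands BMP4 and TGFB2 differed by -1.98 and -1.84.

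Among chemokines, cytokines and growth factors, 1 of 31 was higher and 4 lower (median -0.13). CXCL12, a chemokine of stromal cells, read 10.48 and 10.45 in the later pair, against 8.36 and 8.30 in the earlier pair. Lower beside IL6 were PDGFD, a platelet-derived growth factor, at -2.70, HGF, the hepatocyte growth factor that fibroblasts secrete, at -2.14, and CXCL8, a neutrophil chemokine, at -1.40. In the TNF family, 1 of 23 was higher and 2 lower (median -0.02), with the ligand TNFSF15 at 2.70 and the ligand TNFSF18 at -1.34 beside the receptor TNFRSF21. In the list of metalloproteinases, inhibitors and related genes, 2 of 27 were higher, MMP3 by 1.18 and ADAMTSL1 by 1.02. A second row of ADAMTSL1 differed by 0.55 and did not pass.

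In the axon guidance list, whose ligands and receptors also steer migration of other cells, 2 of 30 were higher and 4 lower (median 0.00). ROBO2, a receptor of Slit ligands, read 6.04 and 5.68 in the later pair, against 8.87 on both earlier arrays. NRP1, a co-receptor of semaphorins and VEGF, read 7.74 and 7.75 in the later pair, against 10.08 and 10.07 in the earlier pair. SEMA3D, a ligand of that family, went the other way, as did PLXNA2, a semaphorin receptor, at 1.40. Of the neuronal and reticulon genes, 4 of 21 were higher and 1 lower (median 0.24). Beside RTN1 these were KCND2, a voltage-gated potassium channel, at 3.07, GRIA3, a glutamate receptor subunit, at 1.66, SYT1, a synaptic vesicle protein, at 1.20, and DPYSL3, lower at -1.46.

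Among transcription factors of lung mesenchyme and related tissue, 1 of 30 was higher and 3 lower (median -0.07). PRRX1, a homeobox factor of mesenchyme, was higher by 1.74, while TFAP2C and TFAP2A, of the AP-2 family, differed by -2.92 and -2.31 and FOXF2, a forkhead factor of mesenchyme, by -1.88. None of 21 measured HOX genes passed, and their median was 0.00. Of 20 imprinted genes, NDN read 7.11 and 6.85 in the later pair, against 4.81 and 5.51 in the earlier pair, and MEST read 7.29 and 7.36 in the later pair, against 10.65 and 10.69 in the earlier pair.

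The interferon response list, genes that interferons switch on as antiviral defence, had the most falls of the 37 lists. Of 28 measured members, 8 were lower and 0 higher, or 28.6% past 1 log2 against 2.44% of all genes. Of the 28 differences 27 were negative, against 56.8% of all genes, and the median was -0.68. IFITM1, a membrane protein that restricts virus entry, read 7.13 and 7.06 in the later pair, against 9.90 and 10.07 in the earlier pair. IFIT1, a sensor of viral RNA, read 8.70 and 8.55 in the later pair, against 10.91 and 10.93 in the earlier pair. IFI44L, IFI44, MX1, IFI6, IFIT2 and XAF1 differed by -2.54, -2.26, -2.02, -1.86, -1.34 and -1.26. IFI44L and IFI44 are neighbours of ADGRL4 on chromosome 1, and all 3 were lower.

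**Figure D3:**
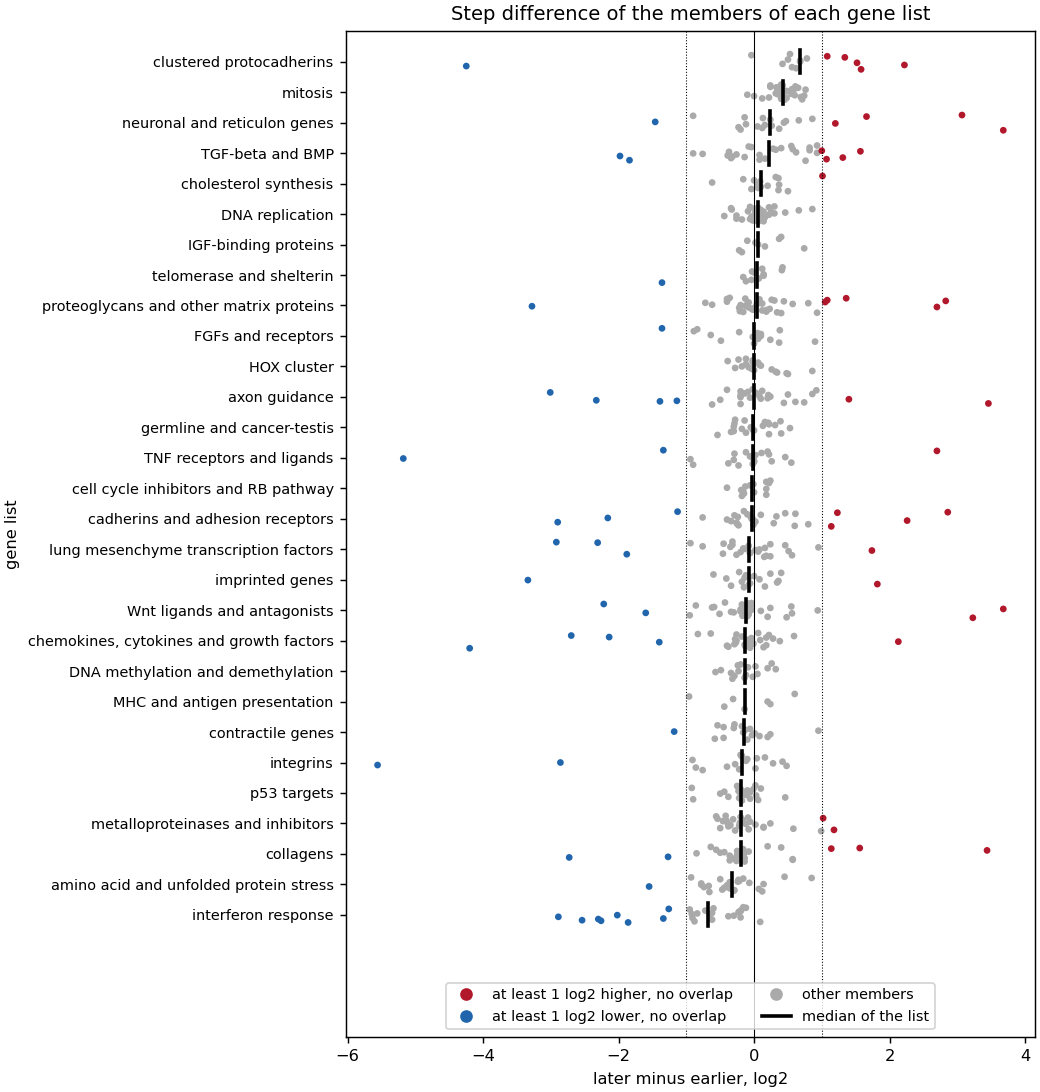
Difference between the later and the earlier pair (log2, horizontal axis) of each measured member of 29 gene lists, 1 point per gene; the black bar is the median of the list. Red and blue points are at least 1 log2 higher or lower with no overlap between the sides. The interferon list has the lowest median, at -0.68, and the clustered protocadherins the highest, at 0.68.

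None of 34 mitosis genes passed 1 log2. Their median was 0.42, the largest value was 0.76, and 33 of 34 differences were positive, against 42.4% of all genes. MKI67, the proliferation antigen Ki-67, read 9.53 and 9.40 in the later pair, against 8.79 and 8.84 in the earlier pair. Both sides lay below every other array, where MKI67 read between 10.13 and 10.91. None of 36 DNA replication genes passed, and their median was 0.06. CDKN2A, the locus of p16 and p14ARF, read 9.46 and 9.42 in the later pair, against 9.59 and 9.30 in the earlier pair, and its sides overlapped. CDKN1A, the p21 inhibitor, differed by -0.18, and none of 25 p53 targets passed (median -0.19). In the list of amino acid and unfolded protein stress, 1 of 26 was lower, PHGDH of serine synthesis at -1.55, and the median was -0.32. STARD4, a carrier of cholesterol, was the 1 of 15 cholesterol synthesis genes that passed, at 1.01.

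The labelled cell type was checked on both sides. Of 12 fibroblast markers, 11 differed by less than 1 log2, and all 4 arrays held COL1A1 between 13.19 and 13.36 and VIM between 12.85 and 12.96. S100A4, an exception, read 10.56 and 10.46 in the later pair, against 8.03 and 8.39 in the earlier pair. None of the endothelial, neural and glial, skeletal and heart muscle, smooth muscle, and adipocyte, cartilage and bone markers passed. Of 7 epithelial markers 2 were lower, KRT18 at -1.72 and KRT19 at -1.68, while EPCAM read 5.65 and 5.85 in the later pair, against 5.97 and 5.47 in the earlier pair, and CDH1 lay between 5.70 and 6.19 on all 4 arrays. Of 5 blood markers HBB was higher by 1.98, while PTPRC lay between 5.50 and 5.90. HBB and its neighbour HBD, at 2.34, are near copies, and their rows may share signal. The mean of the epithelial markers was 7.29 and 7.38 in the later pair, against 8.06 and 7.97 in the earlier pair, and the part of other cells in the step was not tested.

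Position on the chromosomes was not part of the choice. Chromosome medians of the difference ran from -0.085 on chromosome 19 to -0.005. The share of genes past 1 log2 ran from 0.659% on chromosome 16 to 5.68% on chromosome 18, where 15 of 264 genes passed, 9 higher and 6 lower. Over all genes this share was 2.44%. Among 18302 pairs of neighbouring genes, 19 had both members past 1 log2 in the same direction and 7 in opposite directions. The 19 include the near copies HBB and HBD, and IL6 with its antisense entry. Whether such pairs were more frequent than for genes placed at random was not tested. Pairs in the same direction included PTGS2 and PLA2G4A of prostaglandin synthesis, at 3.36 and 2.22, SCN3A and SCN2A, sodium channel genes, at 2.64 and 2.38, and COL4A5 with COL4A6. PCDHB5 with PCDHB6, ADGRL4 with ADGRL2 (1.34) and PCDH10 with PCDH18 (-1.13) went opposite ways.

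The 10 arrays outside the step show where its genes stood at other labelled passages. Each gene was placed on a scale on which 0 is its mean in the earlier pair and 1 its mean in the later pair. The 217 lower genes had median positions of 1.08, 1.07, 1.06 and 1.02 in A58 replicate 2, A67 replicate 1, A67 replicate 2 and A95 replicate 1. The 231 higher genes had 0.81, 0.74, 0.78 and 0.70 on the same arrays. In the next arrays by label both groups had smaller median positions. A95 replicate 2 and B96 replicate 1 stood at 0.54 and 0.55 for the lower genes and 0.30 and 0.29 for the higher genes, and B96 replicate 2 at 0.22 and 0.14.

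Counted gene by gene, 188 of the 217 lower genes stayed beyond the midpoint on the later side in all of A58 replicate 2, both A67 arrays and A95 replicate 1, and so did 129 of the 231 higher genes. With A95 replicate 2 included these were 105 and 64. Before the step, 31 of the lower genes were already on the later side in both primary replicate 2 and A39 replicate 1, and 72 of the higher genes. In primary replicate 1 these were 130 and 83. The lower genes had median positions of 0.64, 0.21 and 0.26 in primary replicate 1, primary replicate 2 and A39 replicate 1, and the higher genes 0.32, 0.34 and 0.30.

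**Figure D4:**
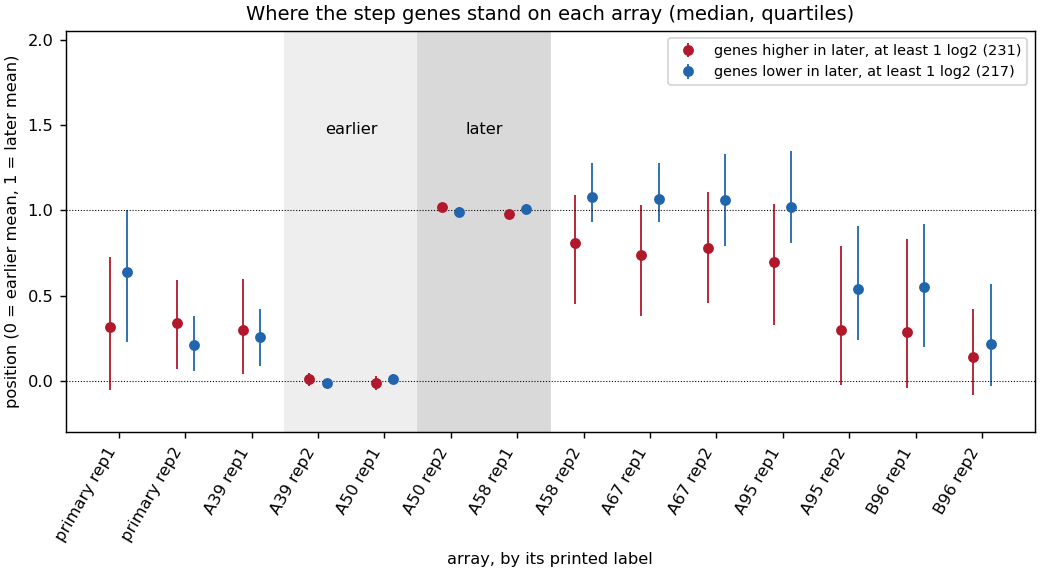
Median position (points) and quartiles (bars) of the 231 higher and 217 lower genes on each of 14 arrays, where 0 is a gene's mean in the earlier pair and 1 its mean in the later pair, so that the shaded arrays are 0 and 1 by construction. The lower genes lie at 1.02 to 1.08 as far as A95 replicate 1 and at 0.54 and 0.55 in A95 replicate 2 and B96 replicate 1.

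Single genes followed different courses. ITGA8 read between 5.08 and 5.41 in A58 replicate 2, A67 and A95 replicate 1, then 8.39 in A95 replicate 2, 8.25 in B96 replicate 1 and 10.69 in B96 replicate 2. It was also low in primary replicate 1, at 5.63, against 10.14 in primary replicate 2 and 10.19 in A39 replicate 1. AMZ2P1 stayed low in all 5 arrays labelled A58 replicate 2 to A95, between 5.79 and 6.48, and in B96 replicate 1 at 6.43, but read 11.96 in B96 replicate 2. It was as low in primary replicate 1, at 6.43, against 12.26 in primary replicate 2 and 12.27 in A39 replicate 1. IL6 was low through A95 replicate 1, at most 7.25, and high in A95 replicate 2 and B96 replicate 1, at 10.54 and 10.56. In primary replicate 1 it read 7.59, against 10.61 in primary replicate 2, and in B96 replicate 2 it read 7.96. FOXE1 stayed between 11.41 and 11.69 through A95 replicate 1 and read 10.14 in A95 replicate 2, 10.03 in B96 replicate 1 and 6.45 in B96 replicate 2.

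Some rises were brief and some were returns. WNT2 stood at 9.07 and 9.04 in the later pair and at most 6.39 on every other array. TNFSF15 stood at 8.29 and 8.30 in the later pair and at most 5.80 on every other array. POSTN was low in the earlier pair but read 10.65, 10.71 and 10.63 in primary replicate 1, primary replicate 2 and A39 replicate 1, and SLC38A5 read 9.22, 9.43 and 9.35 on the same arrays. RTN1, by contrast, lay between 5.37 and 5.66 on these 3 arrays, between 10.06 and 10.52 in A58 replicate 2, A67 and A95 replicate 1, and at 7.98 in A95 replicate 2.

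A test was made on 8 arrays that the pairs did not use, though it was chosen with earlier results of these data known. It set 5 arrays labelled after the step (A58 replicate 2, both A67 and both A95) against 3 labelled before it (both primary and A39 replicate 1). Neither B96 array entered the test, although both are labelled passage 96. B96 replicate 1 had median positions of 0.55 (lower genes) and 0.29 (higher genes), and B96 replicate 2 of 0.22 and 0.14. Over all genes, 78 rose and 156 fell after against before, at a limma adjusted p under 0.05, which is 0.424% and 0.849% of genes. By rows, 100 rose (0.346%) and 195 fell (0.675%). Of the 231 genes higher in the step, 32 rose (13.9%) and 1 fell, and of the 217 lower genes 43 fell (19.8%) and 0 rose. The gene that went the opposite way was PRKG2, a cGMP-dependent protein kinase, which was higher by 1.64 in the step and fell by 1.53 ± 0.28 (SE) outside it (limma adjusted p = 0.04). In sign alone, 174 of the 231 higher genes had a positive difference, against 58.2% of all genes, and 206 of the 217 lower genes a negative one, against 41.8%. The median outside difference was 0.53 for the higher genes and -1.18 for the lower ones, against 0.046 over all genes.

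RTN1 averaged 9.84 ± 1.06 after (SD, n = 5) and 5.52 ± 0.15 before (SD, n = 3), a limma difference of 4.32 ± 0.52 (SE) with an adjusted p of 0.0066. FOXE1 averaged 11.27 ± 0.64 after and 8.66 ± 0.59 before, a difference of 2.60 ± 0.38 (limma adjusted p = 0.017). Every array after the step was higher than every array before it for both genes. SLC38A5 rose by 1.17 ± 0.10 and STARD4 by 1.18 ± 0.10 (limma adjusted p = 0.0015 for each). ANO4 fell by 2.86 ± 0.33 (limma adjusted p = 0.0056) and SIPA1L2 by 2.44 ± 0.32 (limma adjusted p = 0.0093). ITGA11, CADM1, LEF1 and KRT19 fell and AGTR1, PCDHB2 and PRRX1 rose, with limma adjusted p between 0.015 and 0.049.

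The largest falls of the step did not pass. ITGA8 averaged 5.94 ± 1.38 after and 8.65 ± 2.62 before, a difference of -2.71 ± 1.12 (SE), with a limma adjusted p of 0.33. Its value of 8.39 in A95 replicate 2 lay above the 5.63 of primary replicate 1, so the arrays after and before the step overlapped. AMZ2P1, TNFRSF21, FIBIN and IL6 had limma adjusted p of 0.17, 0.22, 0.31 and 0.41, and PPP4R4, at 2.65 ± 0.51, had 0.053. None of the 28 interferon genes passed outside the step, where their median was -0.44, against 0.046 over all genes. Over all genes 0.424% rose and 0.849% fell there, so a count of 0 among 28 lies near the overall share.

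Further genes that passed in both were chosen after their values were seen. SCN3A rose by 4.11 ± 0.50 outside the step, ERBB4, a receptor of neuregulins, by 2.17 ± 0.26 and LPXN, a paxillin-like adaptor of focal adhesions, by 1.68 ± 0.11 (limma adjusted p = 0.0066, 0.0066 and 0.00054). PDE1C, a cyclic nucleotide phosphodiesterase, fell by 2.98 ± 0.24 and CYBA, a subunit of NADPH oxidases, by 2.96 ± 0.17 (limma adjusted p = 0.0015 and 0.0003). ZNF844, a zinc finger gene, read 5.39 and 5.56 in the later pair, against 6.81 and 6.77 in the earlier pair, and fell by 2.03 ± 0.11 outside the step (limma adjusted p = 0.0003).

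**Figure D5:**
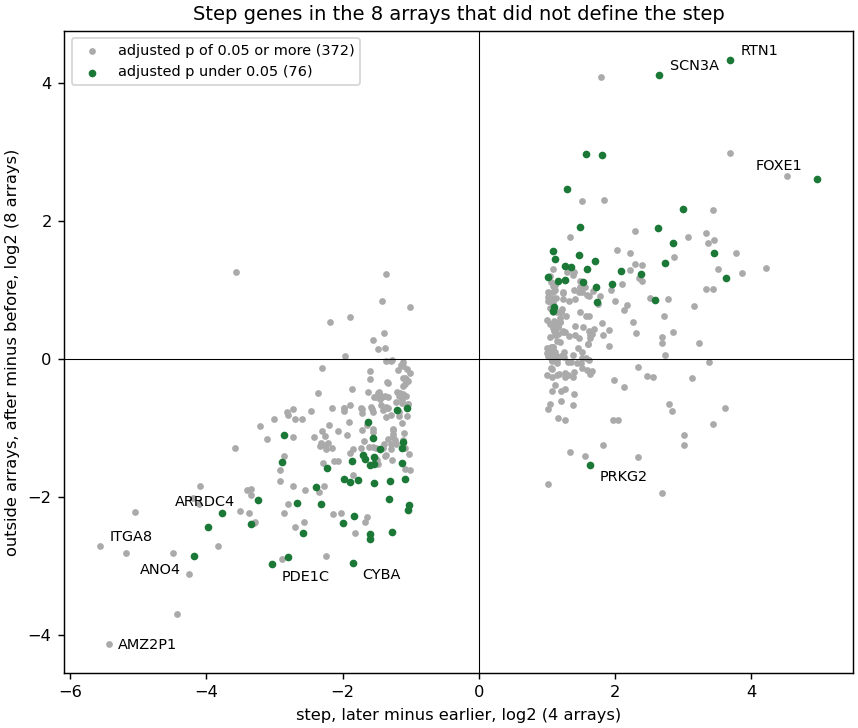
Difference after minus before in the 8 arrays that did not define the step (log2, vertical axis) against the difference between the later and earlier pair (log2, horizontal axis), for the 448 step genes. Green points are the 76 with a limma adjusted p under 0.05 outside the step. RTN1, SCN3A and FOXE1 are green at the upper right, while ITGA8 and AMZ2P1, at the lower left, are grey.

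These calls depend on single arrays and on the fit. Left out in turn, A58 replicate 2, A67 replicate 1, A67 replicate 2, A95 replicate 1, primary replicate 2 and A39 replicate 1 left 18, 16, 20, 17, 12 and 11 of the rises called and 24, 21, 24, 21, 19 and 19 of the falls. Without A95 replicate 2 there were 93 and 112, and without primary replicate 1 there were 45 and 77. Calls over all rows, 100 higher and 195 lower in the main fit, moved as well. They were 420 and 649 without A95 replicate 2, and 239 and 404 without primary replicate 1. Without each of the other arrays they were 21 to 52 and 55 to 127. The counts of step genes alone therefore do not show a change particular to these genes. Of the named genes, RTN1, SLC38A5, ANO4 and STARD4 passed in all 8 of these fits, SIPA1L2 in 6, ITGA11 in 4 and FOXE1 in 3. LEF1, PCDHB2, PRRX1 and KRT19 passed in 2 and AGTR1 and CADM1 in 1. With all 14 arrays in the fit, where the spread comes from the 4 labelled groups that stand on 1 side (primary, A67, A95 and B96), 0 rows passed by limma and 2311 of 28869 had an unadjusted p under 0.05, against 4101 (14.2%) on the 8 arrays. The 2 primary arrays stand only before the step, so outside it the hTERT label and the step cannot be told apart in full, and without them, with A39 replicate 1 alone before the step and assumed to vary like the other arrays, 2 rises and 17 falls passed. Arrays as alike as the partners described above may not be independent, and the p-values would then be too small.

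Read by the printed labels, A58 minus A39, the step was still visible. Of the 231 higher genes 226 had the same sign and 132 passed the same rule, and of the 217 lower genes 217 had the same sign and 180 passed. By rows, 188 of all 28869 were higher and 329 lower by this rule in that contrast. This contrast shares A58 replicate 1 and A39 replicate 2 with the pairs, so the agreement was partly fixed in advance and is no independent evidence.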

How the data were processed

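RNA of 14 WI-38 cultures was measured on 1 array each. The authors deposited 1 table of log2 values, given to 2 decimals. The log base was read from their range, 0 to 14.27. How the scans were corrected, summarised and normalized was not stated in the labels or the file. The medians of the 14 arrays spanned 7.26 to 7.48. Their number limits the precision.

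Rows were named through the platform annotation, updated by gene ID through RefSeq. Of 28869 rows, 19310 had 1 symbol (19279 matched by gene ID), 1752 several and 7807 none. A gene with several rows was represented by its brightest, for 18377 genes in all. No genome was used, and chromosomes and neighbours come from RefSeq.

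The step is a difference of means with no test. The other arrays were tested with limma 3.58.1 (lmFit and eBayes) in R 4.3.3, two-sided, with Benjamini-Hochberg adjustment over all rows at 0.05. On simulated data for that comparison over 28869 rows it recovered 64% of rows changed by 1 log2 and 94% at 2 log2, and called 6 of 28669 unchanged rows. The simulated spread was independent between arrays and equal for all arrays of a row. Partner arrays as alike as the real ones were not simulated, so these rates may not hold for the data. Tables were made in Python 3.11.15.

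The arrays, the 37 gene lists and the tests were chosen with earlier results of these data known. Named genes were the 12 largest rises and falls, up to 4 members per list by size, the step markers ITGA8, TNFRSF21, AMZ2P1 and RTN1, and CDKN2A, CDKN1A, MKI67 and TERT. Further list members past 1 log2 and genes past both were named after their values were seen. Alternatives were other scalings, a filter on dim rows, 1 row per gene, a replicate block, leaving out arrays, other priors and weights, and the printed labels.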

Additional observations from a re-analysis of the deposited data

How the results depend on the processing

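For the step, quantile normalization, centring, a filter on dim rows and 1 row per gene kept the counts of rows within 1.5 times of 316 higher and 274 lower. At 2 log2 there were 71 and 89, and with A58 minus A39 as printed 188 were higher. Leaving out each step array gave 359 to 377 higher and 300 to 327 lower. Scaling moved no named gene by more than 0.06 and leaving out 1 array none by more than 0.54. Genes near the limit could still lose their call. STARD4, at 1.01, differed by 0.97 with quantile normalization and by 0.98 without A39 replicate 2. ADAMTSL1, at 1.02, differed by 0.96 without A50 replicate 1. The sides of named genes past 1 log2 do not overlap, so leaving out 1 array could not reverse their sign. CDKN2A, which did not pass, differed by 0.14 without A39 replicate 2 and by -0.15 without A50 replicate 1.

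The outside test was less stable than the step. Leaving out each of the 8 arrays gave 21 to 420 rows higher and 55 to 649 lower, in place of 100 and 195. Of the step genes, 11 to 93 of the rises and 19 to 112 of the falls were then called, in place of 32 and 43. Array weights gave 3170 and 2747 rows, with 126 and 192 step genes, and the fit of all 14 arrays gave 0 and 0 rows, with 0 and 0 step genes. Without both primary arrays there were 3 and 31 rows, with 2 and 17 step genes. Without primary replicate 1 and A95 replicate 2 together, chosen after seeing the data, there were 1588 and 1797 rows, with 118 and 181 step genes. The cause of these changes was not tested. For the 13 named genes called outside the step, adjusted p ran up to 0.63 over the alternatives.

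Both sides of the step hold the same replicate numbers, so a replicate block could not change its differences of means. The unchanged counts of 316 and 274 rows with the block are therefore no check of the step. In the outside test the block gave 50 and 114 rows, with 22 rises and 27 falls among step genes. Of the 13 named genes called outside the step, AGTR1, CADM1, PRRX1, PCDHB2 and KRT19 did not pass with the block. Replicate numbers did not pair the arrays. Deviations of same-numbered arrays correlated at -0.53 to 0.20 over 21 pairs of groups, 4 of them over 0.1.

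The step rests on 2 arrays a side and has no error beyond their gaps. Detection calls were not part of the table, and clonality, the passage of the step and the independence of the arrays were not tested.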
